A study of Mus musculus with 80 samples.

Results

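The 8 genes described here encode transcription factors of excitatory neurons of the forebrain: Neurod1, Neurod2, Neurod6 and Bhlhe22 with a basic helix-loop-helix (bHLH) domain, Tbr1 with a T-box, Fezf2 and Bcl11b with zinc fingers, and Mef2c with a MADS box. They were taken by name, and their rows were found in the count table by Entrez identifier. They are 8 of 27179 genes in that table. Levels are given as CPM, the count of a gene per 1000000 counts of its library. All 8 were among the 13016 genes tested, those with 5 CPM or more in 8 or more libraries. The row of Bcl11b carries the older symbol Rit1 in the deposited table of log2 values and was identified by its Entrez and Ensembl identifiers.

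RNA of C57BL/6 females (C57BL/6J in the study's methods) was sequenced in 5 brain regions, from virgin and from primiparous animals, that is, females after their first litter. A primiparous female had been caged with a male from 8 weeks of age for 2 weeks, and her pups had since been weaned. The labels place tissue harvest 3 weeks after weaning, while the study's methods give a longer interval. The virgin females were of the same age and had no contact with males. They were also caged in groups of 8, unlike the mated pairs, so mating, pregnancy, nursing, contact with a male and cage density cannot be told apart. All cages stood in 1 room and no transgene was involved. The hypothalamus was taken whole, and of the other regions only the left side was used. Every animal gave a library of each region, without pooling, and every region had 8 primiparous libraries. There were 8 virgin libraries of the hypothalamus and of the neocortex and 7 of each other region, where counts of 1 more virgin library were not available. The study's methods state that 1 outlier of each of these regions was removed by the author after a principal component analysis. Library totals ran from 7959192 to 37871854 counts.

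NeuroD proteins pair with E proteins such as Tcf3, Tcf4 and Tcf12 and bind the E-box, a short motif with the letters CANNTG. They drive and maintain the differentiation of neurons that release glutamate, and Neurod1 is also a factor of cerebellar granule cells. Tbr1 and Fezf2 set the identity of deep-layer projection neurons of the cortex, Tbr1 that of neurons projecting to the thalamus and Fezf2, acting with Bcl11b (also called CTIP2), that of neurons projecting below the forebrain. Bcl11b is also a factor of striatal neurons. Bhlhe22 (also called BHLHB5) acts in the specification of cortical areas and in several classes of sensory and inhibitory neurons. Mef2c regulates genes that respond to neuronal activity and limits the number of excitatory synapses.

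The start of each gene is shown by its promoter, 250 bases before and 50 bases after the annotated start, from RefSeq on GRCm38.p6. Of the 8 members, 7 had a promoter in that table, and the 5 printed are those of the NeuroD genes and of Tbr1 and Mef2c, whose levels are compared most closely. Capitals mark each E-box, CANNTG, which reads the same way on both strands. Neurod1 is on the minus strand at chr2:79456587-79456886, Neurod2 on the minus strand at chr11:98329596-98329895, Neurod6 on the minus strand at chr6:55681214-55681513, Tbr1 on the plus strand at chr2:61804203-61804502 and the first of the 3 starts of Mef2c on the plus strand at chr13:83503784-83504083.
Neurod1: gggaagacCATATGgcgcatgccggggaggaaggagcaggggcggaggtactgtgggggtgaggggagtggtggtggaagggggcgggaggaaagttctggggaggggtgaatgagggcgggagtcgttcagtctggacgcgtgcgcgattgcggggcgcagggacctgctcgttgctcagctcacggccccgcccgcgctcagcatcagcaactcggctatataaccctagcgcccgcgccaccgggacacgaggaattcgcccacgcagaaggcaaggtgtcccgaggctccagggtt
Neurod2: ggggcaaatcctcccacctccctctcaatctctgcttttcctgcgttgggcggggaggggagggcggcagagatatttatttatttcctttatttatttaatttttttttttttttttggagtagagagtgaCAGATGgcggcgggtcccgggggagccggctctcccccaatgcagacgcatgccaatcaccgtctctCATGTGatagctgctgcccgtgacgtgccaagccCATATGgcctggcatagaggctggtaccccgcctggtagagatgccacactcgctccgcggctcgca
Neurod6: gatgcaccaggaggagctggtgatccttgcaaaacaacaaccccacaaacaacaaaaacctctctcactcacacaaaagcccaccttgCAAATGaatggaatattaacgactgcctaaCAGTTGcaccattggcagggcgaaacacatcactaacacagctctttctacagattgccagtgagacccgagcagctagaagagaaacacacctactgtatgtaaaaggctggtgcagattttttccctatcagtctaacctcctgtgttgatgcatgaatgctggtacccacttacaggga
Tbr1: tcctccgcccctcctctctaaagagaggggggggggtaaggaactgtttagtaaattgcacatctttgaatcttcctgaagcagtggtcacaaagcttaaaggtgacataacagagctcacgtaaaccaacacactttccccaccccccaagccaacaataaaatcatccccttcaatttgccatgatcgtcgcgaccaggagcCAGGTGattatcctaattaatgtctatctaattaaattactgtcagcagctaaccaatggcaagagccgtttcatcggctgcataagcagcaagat
Mef2c: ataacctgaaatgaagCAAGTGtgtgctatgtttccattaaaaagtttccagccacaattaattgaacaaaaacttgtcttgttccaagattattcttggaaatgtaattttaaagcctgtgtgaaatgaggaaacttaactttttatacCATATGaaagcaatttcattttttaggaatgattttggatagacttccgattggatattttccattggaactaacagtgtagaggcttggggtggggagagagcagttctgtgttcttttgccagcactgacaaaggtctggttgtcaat
The Neurod2 window held 3 E-boxes, those of Neurod6 and Mef2c 2 each, and those of Neurod1 and Tbr1 1 each. The same letters occur in 72.3% of the 32851 promoters of this length, so a match is common. The form CATATG, found in the windows of Neurod1, Neurod2 and Mef2c, occurs in 3.91% of them. The windows of Fezf2 and Bcl11b held no CANNTG. These matches describe the letters of the windows only. Of the members not printed, GENCODE places Bhlhe22 on the plus strand at chr3:18054174-18057517, Fezf2 on the minus strand at chr14:12342094-12348189 and Bcl11b on the minus strand at chr12:107910403-108003602.

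The members differed between regions far more than between states. Over the 5 region means the range of log2(CPM + 4) was 5.70 for Neurod1, 5.10 for Bcl11b, 5.07 for Neurod2, 4.97 for Neurod6, 4.84 for Tbr1, 4.13 for Mef2c, 3.50 for Fezf2 and 3.09 for Bhlhe22. The median over all genes tested was 0.65, and 9.0% of genes had a range over 2. A wider range than that of Neurod1 was found in 27 genes, and a wider one than that of Bhlhe22 in 360. The order of members depends on the added 4, which narrows the range of a gene near 0 CPM. Without it, edgeR gave -9.45 for Fezf2 and -6.95 for Bcl11b (cerebellum minus hippocampus) on the log2 scale. It gave -7.56 for Tbr1 (cerebellum minus neocortex) and -6.81 for Neurod1 (hypothalamus minus cerebellum). The values of Fezf2 and Tbr1 rest on 0 to 3 and 0 to 30 counts in a cerebellar library, so their size is uncertain. In edgeR quasi-likelihood fits of all 77 libraries, 79 of the 80 contrasts of a member between 2 regions passed an adjusted p of 0.05. Most genes also differed, 98.2% of those tested over all regions. In contrasts of the hypothalamus 81.1% passed against cerebellum, 73.0% against hippocampus, 77.7% against neocortex and 71.0% against amygdala, and in those of the cerebellum 78.7% against hippocampus, 79.9% against neocortex and 80.2% against amygdala. The shares were 67.0% between hippocampus and neocortex, 58.7% between hippocampus and amygdala and 62.5% between neocortex and amygdala, so the counts of calls say little about these genes and their levels are described instead. These are bulk tissue libraries, in which fewer cells of a type and less RNA per cell cannot be told apart.

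**Figure D1:**
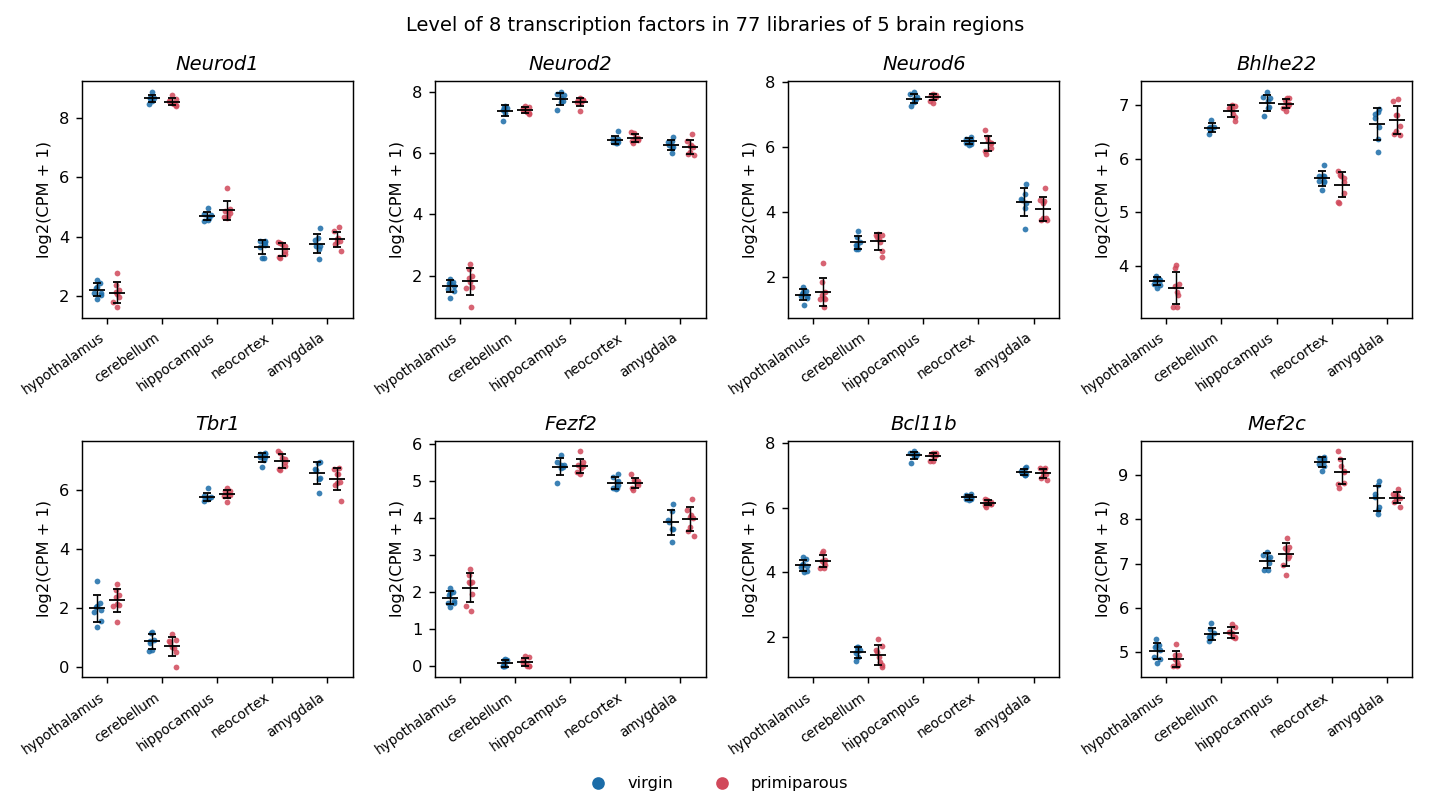
Level of each member as log2(CPM + 1) (vertical axis) in each of 77 libraries by region (horizontal axis), virgin in blue and primiparous in red, with the mean and SD of each group in black. Neurod1 stands highest in the cerebellum, Tbr1 and Mef2c in the neocortex and the other 5 in the hippocampus, while Tbr1, Fezf2 and Bcl11b are lowest in the cerebellum.

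Neurod1 was the one member with its highest level in the cerebellum, as 37.1% of genes tested had. There it ran from 338.5 to 469.7 CPM with a median of 382.2 (mean 388.3 ± 35.9, SD, n = 15). In the hippocampus it ran from 22.2 to 48.7 CPM with a median of 25.5. Levels were lower again in the amygdala (13.6 ± 2.91, SD, n = 15), the neocortex (11.4 ± 1.86, n = 16) and the hypothalamus (3.55 ± 0.928, n = 16). The cerebellar mean was 14.3 times that of the hippocampus, and no library of either region overlapped the other. The lowest step, between amygdala and neocortex, was 0.27 ± 0.090 (SE) on the log2 scale with an edgeR adjusted p of 0.0082, and their libraries overlapped. That step missed the threshold without animal 4486 (adjusted p = 0.064, edgeR). All 4231 bases of the Neurod1 gene lie within Cerkl on the same strand, and 2767 of them within Gm26755 on the other strand, so reads of these genes may not be told apart from those of Neurod1. No annotated gene overlapped any of the other members.

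The hippocampal mean of Neurod1 rested in part on the library of primiparous animal 413, with 48.7 CPM against 22.2 to 30.2 CPM in the other 14. The 7 markers of cerebellar granule cells summed to 347.5 CPM in that library and to 23.4 to 72.3 CPM in the others. Gabra6, a receptor subunit of granule cells, stood at 54.3 CPM there against a median of 0.493 CPM over the hippocampal libraries. Without that library the hippocampal mean of Neurod1 was 25.7 ± 2.54 CPM (SD, n = 14). The part of cerebellar RNA in this value was not tested.

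Neurod2 was high in both the hippocampus and the cerebellum. In the hippocampus it ran from 165.6 to 255.3 CPM with a median of 210.0, and in the cerebellum from 129.9 to 183.9 CPM with a median of 169.8. The ranges overlapped, and the step of 0.47 ± 0.066 (SE, log2) passed with an adjusted p of 1.4e-09 in edgeR. The neocortex (87.5 ± 8.09 CPM, SD, n = 16) and the amygdala (75.2 ± 10.6 CPM, n = 15) followed, 0.19 ± 0.067 apart on the log2 scale (adjusted p = 0.0099, edgeR), a step that missed the threshold with the animal as a replicate block and a correction for gene length and GC content (adjusted p = 0.167, edgeR). Neurod2 was then 31.3 times lower in the hypothalamus than in the amygdala by the ratio of means, at 2.41 ± 0.791 CPM (SD, n = 16).

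Neurod6, a NeuroD factor of forebrain neurons, was highest in the hippocampus, as were 10.2% of genes tested, and ran there from 151.8 to 205.3 CPM with a median of 182.3. The neocortex ran from 54.3 to 90.1 CPM with a median of 69.3, and the amygdala from 10.2 to 27.8 CPM with a median of 18.5. None of these ranges overlapped. The cerebellum held 7.58 ± 1.29 CPM (SD, n = 15) and the hypothalamus 1.91 ± 0.766 CPM (SD, n = 16). Each of the 4 steps of Neurod6 passed in edgeR, with log2 differences of 1.39, 1.95, 1.37 and 1.97 from the hippocampus downwards.

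Levels of different genes can be set side by side only per length, as RPKM, that is, CPM divided by the exon length in kilobases. Lengths were those of all GENCODE M21 exons of a gene, from 2150 bases for Neurod6 to 15715 for Mef2c. The study counted reads on another annotation, the one built into featureCounts, so ranks and shares between genes depend on the lengths taken. On this scale the 3 NeuroD genes together reached 199.3 ± 14.95 RPKM (SD, n = 15) in cerebellum, 161.1 ± 10.3 in hippocampus, 64.6 ± 5.47 in neocortex, 37.3 ± 5.10 in amygdala and 2.96 ± 0.657 in hypothalamus. Neurod1 made up 71.3% ± 2.14 (SD) of this sum in the cerebellum, against 6.19% ± 1.42 in the hippocampus and 6.44% ± 0.935 in the neocortex. Neurod6 made up 52.2% ± 3.32 of it in the hippocampus and 50.4% ± 2.79 in the neocortex, but 1.78% ± 0.318 in the cerebellum. In the amygdala Neurod2 took the greatest share, 64.4% ± 4.92 of the sum. Between hippocampus and neocortex the share of each of the 3 genes differed by less than its SD, while the summed level did not overlap within 1 SD. For Neurod1 the hippocampal share ran from 4.85% to 10.9% and included primiparous 413, so its SD there rests in part on that library.

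**Figure D2:**
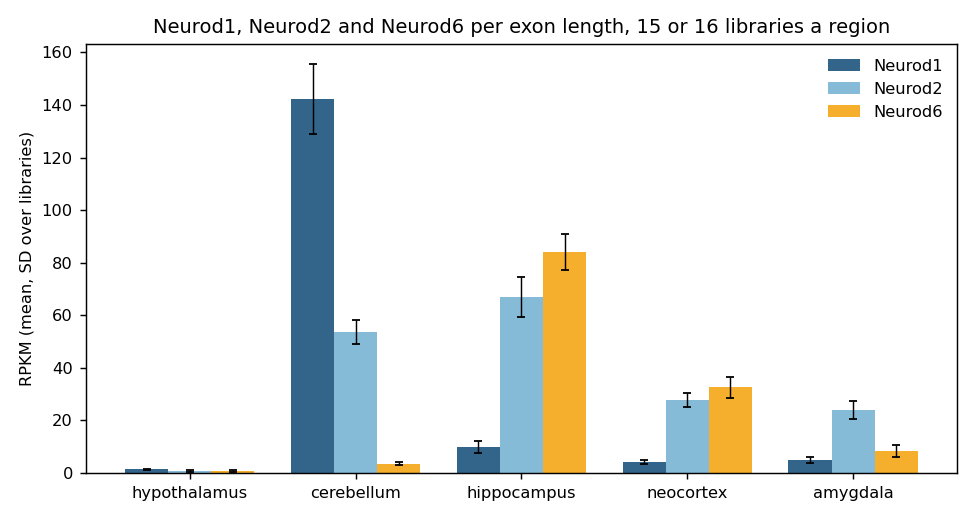
Mean level of Neurod1, Neurod2 and Neurod6 in RPKM (vertical axis, from 0) in the 5 regions (horizontal axis), with the SD over 15 or 16 libraries as bars. Neurod1 reaches 142.3 RPKM in the cerebellum, where Neurod6 stands at 3.52, and Neurod6 reaches 84.1 RPKM in the hippocampus.

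Bhlhe22 had the flattest profile of the 8. It ran from 110.2 to 150.5 CPM with a median of 128.6 in the hippocampus, from 87.1 to 127.2 CPM with a median of 104.6 in the cerebellum and from 68.7 to 136.2 CPM with a median of 106.6 in the amygdala. These 3 ranges overlapped. The hippocampus was above the cerebellum by 0.45 ± 0.067 (SE, log2; adjusted p = 1.0e-08, edgeR), whereas cerebellum and amygdala, 0.11 ± 0.068 apart, did not pass (adjusted p = 0.142, edgeR). That was the single contrast of the 80 that did not pass, and it passed without animal 405 (adjusted p = 0.027). The neocortex had 47.0 ± 6.18 CPM (SD, n = 16) and the hypothalamus 11.7 ± 1.85 CPM (SD, n = 16), and neither overlapped its neighbour in the order.

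Tbr1 was highest in the neocortex, as were 14.3% of genes tested, from 100.4 to 156.9 CPM with a median of 135.9. The amygdala ran from 47.8 to 123.0 CPM with a median of 92.2 and the hippocampus from 47.2 to 66.5 CPM with a median of 54.0. Neighbouring ranges overlapped, and the steps of 0.54 ± 0.10 and 0.68 ± 0.11 (SE, log2) passed in edgeR with adjusted p of 6.8e-06 and 6.7e-08. Tbr1 fell to 3.52 ± 1.41 CPM (SD, n = 16) in the hypothalamus and to 0.73 ± 0.33 CPM (SD, n = 15) in the cerebellum, where it had 0 to 30 counts a library.

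Fezf2 ran from 29.7 to 54.9 CPM with a median of 41.9 in the hippocampus and from 26.2 to 35.9 CPM with a median of 30.4 in the neocortex. The hippocampus was higher by 0.50 ± 0.093 (SE, log2; adjusted p = 2.5e-06, edgeR), with overlapping libraries. Below them stood the amygdala (14.6 ± 3.52 CPM, SD, n = 15) and the hypothalamus (3.05 ± 0.955 CPM, SD, n = 16). The cerebellum had 0 to 3 counts a library, and 7 of its 15 libraries had none, so Fezf2 was not measurable there at this depth.

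Bcl11b ran from 168.4 to 214.3 CPM with a median of 196.7 in the hippocampus, from 115.7 to 153.2 CPM with a median of 134.3 in the amygdala and from 64.1 to 85.6 CPM with a median of 75.1 in the neocortex. No 2 neighbours in its order overlapped. The order placed the amygdala above the neocortex by 0.89 ± 0.052 (SE, log2; adjusted p = 3.9e-26, edgeR), a direction shared with Neurod1 and Bhlhe22 and the reverse of the other members. The 7 striatal projection neuron markers also summed higher in the amygdala, at medians of 271.3 CPM in virgin and 234.9 CPM in primiparous libraries, than in the neocortex, at 177.8 and 185.1 CPM, and their part in the Bcl11b level was not tested. The hypothalamus kept 18.6 ± 2.56 CPM (SD, n = 16) and the cerebellum 1.80 ± 0.467 CPM (SD, n = 15).

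Mef2c ran from 420.9 to 743.2 CPM with a median of 603.3 in the neocortex and from 275.6 to 468.0 CPM with a median of 364.9 in the amygdala. The ranges overlapped at their ends, and the step was 0.68 ± 0.069 (SE, log2; adjusted p = 4.1e-14, edgeR). The hippocampus had 141.9 ± 22.5 CPM (SD, n = 15), the cerebellum 42.2 ± 3.76 (n = 15) and the hypothalamus 29.9 ± 4.30 (n = 16). Per length, Mef2c was the member with the highest mean in the neocortex, 37.6 ± 5.90 RPKM (SD), followed by Neurod6 with 32.6 ± 3.97, and the 2 overlapped within 1 SD. In the hippocampus it stood at 9.03 ± 1.43 RPKM, below Neurod6 with 84.1 ± 6.72 and Neurod2 with 67.1 ± 7.61.

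Between the hippocampus and the neocortex the 8 factors split by direction. Neurod1, Neurod2, Neurod6, Bhlhe22, Fezf2 and Bcl11b were higher in the hippocampus, by 0.50 (Fezf2) to 1.499 (Bhlhe22) on the log2 scale, and Tbr1 and Mef2c were lower there, with -1.22 and -2.03. Of genes tested, 67.0% differed between these 2 regions (edgeR). In the hypothalamus all 8 were lower than in the hippocampus, the neocortex and the amygdala, and Neurod1, Neurod2, Neurod6, Bhlhe22 and Mef2c had their lowest mean of the 5 regions there, as did 15.5% of genes tested. Their low hypothalamic levels were not nil: Bcl11b had 161 to 488 counts a library, Mef2c 198 to 763 and Neurod6 12 to 66. Slc17a7, the vesicular glutamate transporter of cortical and hippocampal neurons, ran there from 1.04 to 24.5 CPM, while Slc17a6, the transporter of most hypothalamic glutamate neurons, ran from 276.5 to 434.8 CPM. The libraries with the most Slc17a7, primiparous 425 and virgin 4490, held 5.78 and 3.84 CPM of Neurod1 and 1.51 and 1.69 CPM of Neurod6. Among all 16 hypothalamus libraries primiparous 425 had the most Neurod1, Fezf2 and Bcl11b, but not the most Neurod6 or Tbr1, and the part of neighbouring tissue in these values was not tested.

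The genes with the most similar profile were taken as those with the highest Pearson r of log2(CPM + 4) over the 77 libraries. These libraries share region and depth, so r describes the order of regions more than anything else. Neurod1 was nearest to Etv1 (r = 0.982) and Srgap2 (0.976), and Neurod6 to Atp2b1 (0.980) and Adra1d (0.974). Close to Neurod2 was Chst15 (0.970), and close to Bhlhe22 was Anks1b (0.957). Tbr1 was nearest to the potassium channel gene Kcnh3 (0.989) and Tmem121b (0.988), Fezf2 to Bcl11a (0.978) and Kalrn (0.974), Bcl11b to Rgs14 (0.995) and Stum (0.989), and Mef2c to Tiam2 (0.982) and Camk2n1 (0.977). Bcl11a, the gene nearest to Fezf2, is the paralog of Bcl11b.

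The next question was whether first motherhood was followed by a lasting difference in these factors. Of 40 comparisons (8 members in 5 regions), 1 passed an adjusted p of 0.05 in edgeR fits of each region alone, Bhlhe22 in the cerebellum. Of all genes tested, 0.707% passed in the cerebellum and 22.6% in the hypothalamus, and 0 of 13016 passed in the hippocampus, neocortex and amygdala, where 961, 1276 and 1544 genes had an unadjusted p under 0.05 and DESeq2 called 12, 4 and 95. In 1 edgeR fit of all 10 groups 6, 6 and 142 genes passed there, no member among them. Higher levels in primiparous cerebellum were called in 0.599% of genes tested. No member separated virgin from primiparous libraries without overlap in any region, against 0.323% of genes tested in the cerebellum, 0.884% in the hypothalamus, 0.0845% in the hippocampus, 0.0154% in the neocortex and 0.146% in the amygdala.

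**Figure D3:**
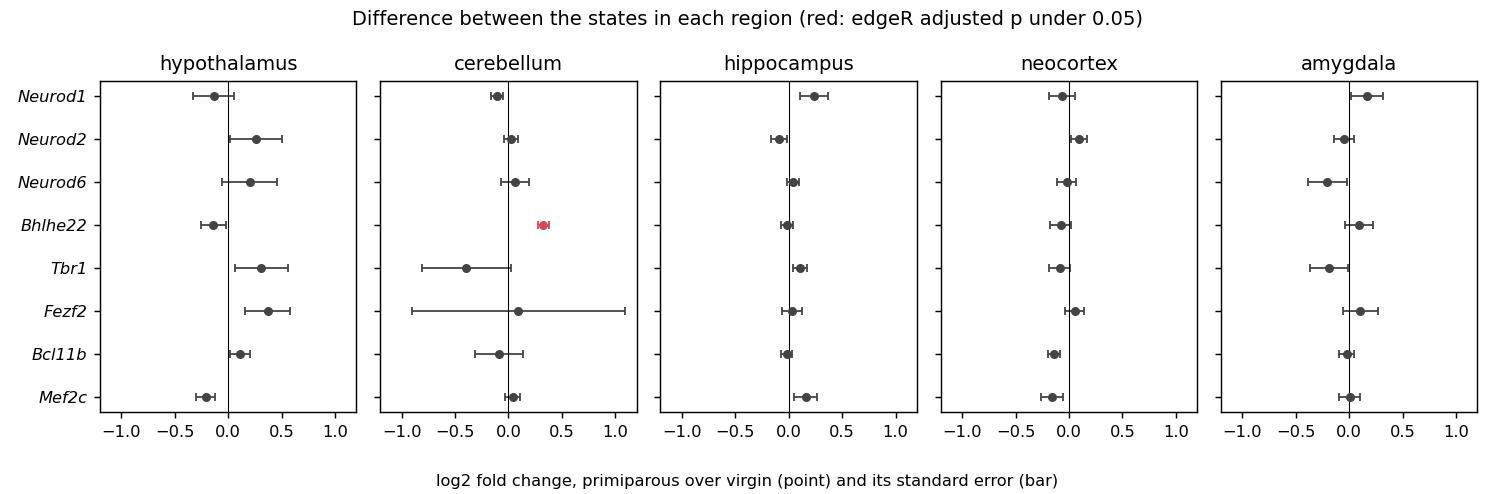
Log2 fold change of each member, primiparous over virgin (horizontal axis), with its standard error derived from the edgeR F-test, in the 5 regions. The red point is Bhlhe22 in the cerebellum, at 0.33, and the bars are widest for Fezf2 and Tbr1 in the cerebellum, which had few counts there.

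In the cerebellum, Bhlhe22 ran from 87.1 to 104.6 CPM with a median of 94.5 in the 7 virgin libraries and from 102.8 to 127.2 CPM with a median of 120.8 in the 8 primiparous libraries. All 8 primiparous libraries were above the virgin mean, and the groups overlapped only in that virgin 405, at 104.6 CPM, stood above primiparous 414, at 102.8. The means were 94.6 ± 5.21 (SD, n = 7) and 117.6 ± 8.64 CPM (SD, n = 8), a log2 fold change of 0.33 ± 0.055 (SE) or 1.26-fold with an edgeR adjusted p of 0.011. Leaving out any 1 library kept the adjusted p between 0.0028 and 0.045. It was 3.5e-05 in DESeq2.

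The call ended in 2 alternatives. With the series of the animal number (3 or 4 digits) as a covariate the log2 fold change was 0.25 and the edgeR adjusted p 0.59, where 0 of all 13016 genes passed and 787 had an unadjusted p under 0.05. In 1 fit of all 10 groups the adjusted p was 0.07. Of the virgin animals 2 had numbers of 3 digits and of the primiparous animals 7. Among cerebellar libraries with 3 digits Bhlhe22 ran from 94.8 to 104.6 CPM in 2 virgin and from 102.8 to 127.2 CPM in 7 primiparous libraries, and with 4 digits from 87.1 to 94.9 CPM in 5 virgin libraries against 109.0 CPM in 1 primiparous library. What the number series stands for is not given in the labels.

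Markers of other cell types were summed in the same cerebellar libraries. Over 5 genes each, oligodendrocyte markers ran from 4035 to 5470 CPM in virgin and from 4963 to 6977 CPM in primiparous libraries, and microglia markers from 76.8 to 91.3 CPM and from 89.7 to 111.8 CPM. In each of these lists and in the astrocyte list 1 gene of 5 passed (edgeR), all higher after a litter. The 7 granule cell markers summed to 4056 to 4488 CPM with a median of 4302 in virgin and to 3437 to 4577 CPM with a median of 3832 in primiparous libraries, 6 of 8 of them below the lowest virgin library, with 0 of 7 past the threshold and 2 of 7 at an unadjusted p under 0.05. The 4 Purkinje cell markers summed to a median of 3809 CPM (3661 to 4383) in virgin and 4421 CPM (3918 to 4948) in primiparous libraries, with 0 of 4 past the threshold and 4 of 4 at an unadjusted p under 0.05. The 4 choroid plexus markers ran from 21.8 to 1254 CPM with a median of 37.7 and from 33.2 to 3502 CPM with a median of 76.3, with 0 of the 3 tested past the threshold. Of the 8 inhibitory neuron markers, which summed to 1023 to 1162 and to 1022 to 1271 CPM, 0 passed and 2 had an unadjusted p under 0.05, and 5 of the 8 were under 1 CPM. Of 13016 genes tested, 2538 had an unadjusted p under 0.05 in the cerebellum (edgeR). The part of these cell types in the Bhlhe22 difference was not tested. Neurod1, the granule cell factor among the members, ran from 356.5 to 469.7 CPM in virgin and from 338.5 to 434.5 CPM in primiparous cerebellum, with a log2 fold change of -0.11 ± 0.059 (SE, adjusted p = 0.327, edgeR). The log2 fold changes of the other members there were 0.03 ± 0.062 (SE) for Neurod2, 0.06 ± 0.13 for Neurod6, -0.08 ± 0.23 for Bcl11b and 0.04 ± 0.068 for Mef2c. Tbr1, with 0 to 30 counts a library, had -0.39 ± 0.41, which ran from -1.02 to -0.06 over 11 alternatives and is not resolved at this depth, and Fezf2, with 0 to 3 counts, could not be compared between the states.

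**Figure D4:**
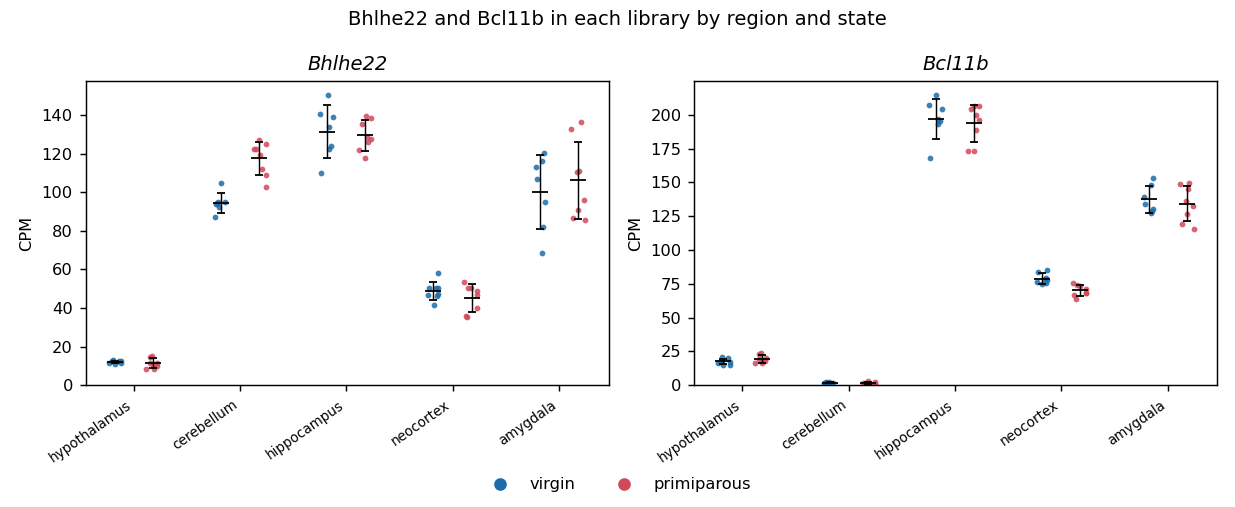
Bhlhe22 and Bcl11b in CPM (vertical axis, from 0) in each library by region and state, with the mean and SD of each group. Bhlhe22 in the cerebellum is 94.6 CPM in virgin and 117.6 in primiparous libraries, and Bcl11b in the neocortex 78.9 and 70.2.

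In the hypothalamus 0 of 8 members passed in edgeR, against 22.6% of genes tested. Neurod1, Neurod2, Neurod6, Tbr1 and Fezf2 averaged 1.91 to 3.55 CPM there and met the filter through other regions. Their tests rested on few counts, so the 0 does not show that these genes were unchanged. At an unadjusted p under 0.05 there was 1 of 8, Mef2c, against 4834 of 13016 genes tested. The count of 0 was the same in limma-voom, limma-trend and DESeq2. Mef2c ran from 25.9 to 38.1 CPM in the 8 virgin libraries and from 24.8 to 35.4 CPM in the 8 primiparous libraries. The groups overlapped over most of their range, although 7 of 8 primiparous libraries lay below the virgin mean. Its log2 fold change was -0.21 ± 0.088 (SE) with an adjusted p of 0.081, and it passed without primiparous 418 (-0.27, adjusted p = 0.015) or without virgin 409 (-0.24, adjusted p = 0.046). With the length and GC correction it was -0.02 and the adjusted p 0.938 in edgeR. A marker of hypothalamic glutamate neurons moved in the same libraries: Slc17a6 was at 391.4 ± 36.9 CPM in virgin and 305.1 ± 29.5 CPM in primiparous libraries (SD, n = 8 each; log2 -0.38 ± 0.062, SE, adjusted p = 9.8e-04, edgeR), and 7 of 8 primiparous libraries lay below the lowest virgin one. The 4 excitatory neuron markers together summed to 917.1 to 1013 CPM with a median of 955.5 in virgin and to 866.1 to 989.4 CPM with a median of 912.4 in primiparous libraries, and 1 of the 4, Slc17a6, passed. The median log2 fold change of the 4 was 0.14, opposite in direction to that of Slc17a6, so the list did not fall as a whole. The 8 inhibitory neuron markers summed to medians of 1134 and 1144 CPM, with 2 higher and 1 lower. The part of these cells in the hypothalamic differences of Mef2c and of the relatives named below was not tested.

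The other 7 members had hypothalamic log2 fold changes from -0.14 (Bhlhe22) to 0.37 (Fezf2), none of them past the threshold. They were -0.14 ± 0.19 (SE) for Neurod1, 0.26 ± 0.24 for Neurod2, 0.20 ± 0.26 for Neurod6 and 0.31 ± 0.25 for Tbr1. Fezf2, at 2.62 ± 0.453 CPM (SD, n = 8) in virgin and 3.49 ± 1.15 CPM (SD, n = 8) in primiparous libraries, had 0.37 ± 0.21 (SE, adjusted p = 0.20, edgeR). The 95% interval of that value was -0.04 to 0.78, so a difference of this size could not be resolved with these libraries, which had 24 to 82 counts each. For Bcl11b, with more counts, the interval was narrower, -0.07 to 0.30 around 0.12. The background of calls in this region was itself unstable: 2939 genes passed in edgeR, 417 with the length and GC correction and 3 with the animal number series as a covariate.

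In the neocortex Bcl11b had the smallest p of the members. It ran from 74.7 to 85.6 CPM with a mean of 78.9 ± 3.87 (SD, n = 8) in virgin libraries and from 64.1 to 75.7 CPM with a mean of 70.2 ± 4.01 (SD, n = 8) in primiparous libraries. All 8 primiparous libraries were below the virgin mean, and the groups overlapped only between 74.7 and 75.7 CPM. The log2 fold change was -0.14 ± 0.053 (SE), with an unadjusted p of 0.017 and an adjusted p of 0.479 in edgeR, so it did not pass. The adjusted p ran from 0.275 in DESeq2 to 0.994 with the length and GC correction over 11 alternatives, all of them with a fold change below 0. The other members had neocortical log2 fold changes of -0.06 ± 0.12 (SE) for Neurod1, 0.09 ± 0.074 for Neurod2, -0.02 ± 0.091 for Neurod6, -0.08 ± 0.096 for Bhlhe22, -0.09 ± 0.097 for Tbr1, 0.05 ± 0.085 for Fezf2 and -0.16 ± 0.10 for Mef2c, with adjusted p from 0.529 to 0.934 in edgeR.

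In the hippocampus the log2 fold changes were 0.23 ± 0.13 (SE) for Neurod1, -0.09 ± 0.073 for Neurod2, 0.04 ± 0.057 for Neurod6, -0.02 ± 0.058 for Bhlhe22, 0.11 ± 0.069 for Tbr1, 0.03 ± 0.095 for Fezf2, -0.02 ± 0.051 for Bcl11b and 0.16 ± 0.11 for Mef2c, with adjusted p from 0.741 to 0.967 in edgeR. In the amygdala they were 0.17 ± 0.15 for Neurod1, -0.05 ± 0.093 for Neurod2, -0.21 ± 0.18 for Neurod6, 0.09 ± 0.13 for Bhlhe22, -0.19 ± 0.18 for Tbr1, 0.10 ± 0.16 for Fezf2, -0.02 ± 0.069 for Bcl11b and 0.0059 ± 0.099 for Mef2c, with adjusted p from 0.699 to 0.990. The value of Neurod1 in the hippocampus included primiparous 413, and without it the primiparous mean was 26.4 ± 2.27 CPM (SD, n = 7) against 24.9 ± 2.72 CPM (SD, n = 7) in virgin libraries.

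Whether the difference between states itself varied with region was tested as an interaction over all 77 libraries. With all regions in 1 test 0 of 8 members passed in edgeR, against 15.9% of genes tested. At an unadjusted p under 0.05 there was 1 of 8, Bhlhe22, against 4219 of 13016 genes tested. The adjusted p of Bhlhe22 was 0.066 in edgeR. It reached 0.0499 in DESeq2, 0.04996 without animal 414 and 0.036 without animal 425. In the contrast of hypothalamus minus cerebellum Bhlhe22 passed, as did 10.1% of genes tested, with a log2 difference between the 2 fold changes of -0.47 ± 0.15 (SE, adjusted p = 0.031). With the animal as a replicate block it was -0.44 (adjusted p = 0.044). With the block and the length and GC correction the adjusted p was 0.068. It also missed the threshold, at adjusted p from 0.057 to 0.075, without any 1 of the animals 413, 415, 4486, 4487, 4489 and 4491. No member passed in hypothalamus minus hippocampus (5.11% of genes), minus neocortex (0.00768%) or minus amygdala (19.3%), except Mef2c in the first of these without animal 418 (-0.46, adjusted p = 0.033). At an unadjusted p under 0.05 there were 1, 1 and 0 members, against 3364, 380 and 4398 of 13016 genes tested. The low hypothalamic counts of the NeuroD genes, Tbr1 and Fezf2 limit these contrasts too.

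The members' relatives and partners were described from lists written from general knowledge. In the hypothalamus 11.8% of genes tested fell after a litter and 10.8% rose (edgeR). With the animal number series as a covariate 3 of 13016 genes passed there, all of them lower, so no rise named below held in that alternative and no more than 3 of the falls could. Of 32 other forebrain transcription factors, 3 fell in the hypothalamus and none rose (edgeR), a share of calls below that of all genes: Etv1 with a log2 fold change of -0.39 ± 0.081 (SE, adjusted p = 0.0032), Foxp2 with -0.38 ± 0.094 (adjusted p = 0.0073) and Pou3f2, an upper-layer factor in cortex, with -0.22 ± 0.079 (adjusted p = 0.043). The median over the 32 was -0.06, against 0.01 over all genes. In the cerebellum 0 of the 32 passed, with 5 at an unadjusted p under 0.05, against 2538 of 13016 genes tested (edgeR). Etv1, whose profile was nearest to that of Neurod1, ran at 258.9 ± 16.4 CPM (SD, n = 7) in virgin and 227.9 ± 26.5 CPM (n = 8) in primiparous cerebellum (log2 -0.17, adjusted p = 0.146, edgeR).

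Of 16 bHLH partners and relatives 11 were tested, and in the hypothalamus 4 rose and 1 fell (edgeR), beside the 10.8% and 11.8% of all genes. Tcf3, which encodes an E protein that pairs with NeuroD factors, rose from 27.3 ± 1.36 to 33.5 ± 3.52 CPM (SD, n = 8 each; log2 0.28, adjusted p = 0.0071). The E protein genes Tcf4 and Tcf12 did not pass, with log2 values of -0.12 and -0.15. Bhlhe41, a repressor of the circadian clock, rose by 0.23 and the oligodendrocyte factors Olig2 and Olig1 by 0.21 and 0.19 (adjusted p from 0.014 to 0.039). The 5 oligodendrocyte markers summed there to medians of 5292 CPM in virgin and 5182 CPM in primiparous libraries. Id2, which sequesters E proteins, fell by 0.31 on the log2 scale (adjusted p = 0.011). In the cerebellum, where 0.599% of genes tested rose, 2 of the 11 passed and both rose, Olig1 by 0.35 (adjusted p = 0.011) and Id4 by 0.29 (adjusted p = 0.021), in the same libraries as Bhlhe22. Both calls were lost with the animal number series as a covariate, where no gene passed in that region.

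Of 9 MEF2 relatives and regulators 8 were tested. In the hypothalamus Mef2a, a paralog of Mef2c, fell by 0.28 ± 0.084 on the log2 scale (SE; adjusted p = 0.022, edgeR) and Mapk7, which encodes the MEF2-activating kinase ERK5, rose by 0.35 ± 0.087 (adjusted p = 0.0077). Mef2d, another paralog, did not pass (0.08). Of 8 genes reported as targets of these factors, among them Grin2b, Reln, Auts2 and Bdnf, 0 passed in the hypothalamus or the cerebellum. At an unadjusted p under 0.05 there were 2 and 1 of these targets, against 4834 and 2538 of 13016 genes tested. Of 3 T-box and zinc finger relatives Tbx21 passed in the hypothalamus, at 0.155 ± 0.112 CPM in virgin and 0.490 ± 0.367 CPM in primiparous libraries (SD, n = 8 each; adjusted p = 0.043). Tbx21 met the filter on low values only through the neocortex, where it averaged 4.99 and 5.52 CPM, and nothing is read from a hypothalamic call at a level of a few counts. All of these hypothalamic calls come from the edgeR fit of that region alone.

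Last, members were compared across animals within a region, after the mean of each state was removed from log2(CPM + 4). Over the 28 pairs in each of 5 regions, 140 pairs in all, 5 passed a permutation test with adjusted p under 0.05, all of them in the neocortex and all positive, with r of 0.755 or more. Of all pairs of genes tested, 4.66% had an r that high in the neocortex and 0.418% to 0.936% in the other 4 regions, so such values were also more frequent among all genes in the neocortex. Tbr1 and Mef2c had r = 0.909 (Spearman rho 0.829, adjusted permutation p = 0.0014, n = 16 animals), and r was 0.861 without the 2 libraries farthest from the median of Tbr1. Within states r was 0.805 in the 8 virgin and 0.958 in the 8 primiparous animals. Neurod6 with Mef2c had r = 0.856 (rho 0.627), but 0.165 in virgin and 0.952 in primiparous animals, a difference that was not tested. Neurod6 with Tbr1 had r = 0.811 (rho 0.756, 0.850 without the 2 farthest). Neurod1 had 0.772 with Mef2c (rho 0.765, 0.699 without the 2) and 0.755 with Tbr1 (rho 0.718, 0.609 without the 2). By Spearman's rho 1 of these 5, Tbr1 with Mef2c, kept an adjusted permutation p under 0.05 (0.0154). With TMM normalization and log2(CPM + 1), both Tbr1 with Mef2c (adjusted permutation p = 0.0042) and Neurod6 with Tbr1 (0.0182) passed by rho.

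The neocortex libraries with little Mef2c also had little Tbr1. Primiparous 418 had 420.9 CPM of Mef2c, 100.4 of Tbr1 and 58.0 of Neurod6. Primiparous 4493 had 447.3, 103.6 and 61.4 CPM of the same genes, and primiparous 421 had 453.4, 111.4 and 54.3 CPM. At the other end primiparous 413 had 743.2 CPM of Mef2c, 150.6 of Tbr1 and 90.1 of Neurod6. The extremes were thus both in the primiparous group, and the virgin libraries lay between them for Mef2c, from 548.1 to 680.0 CPM.

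**Figure D5:**
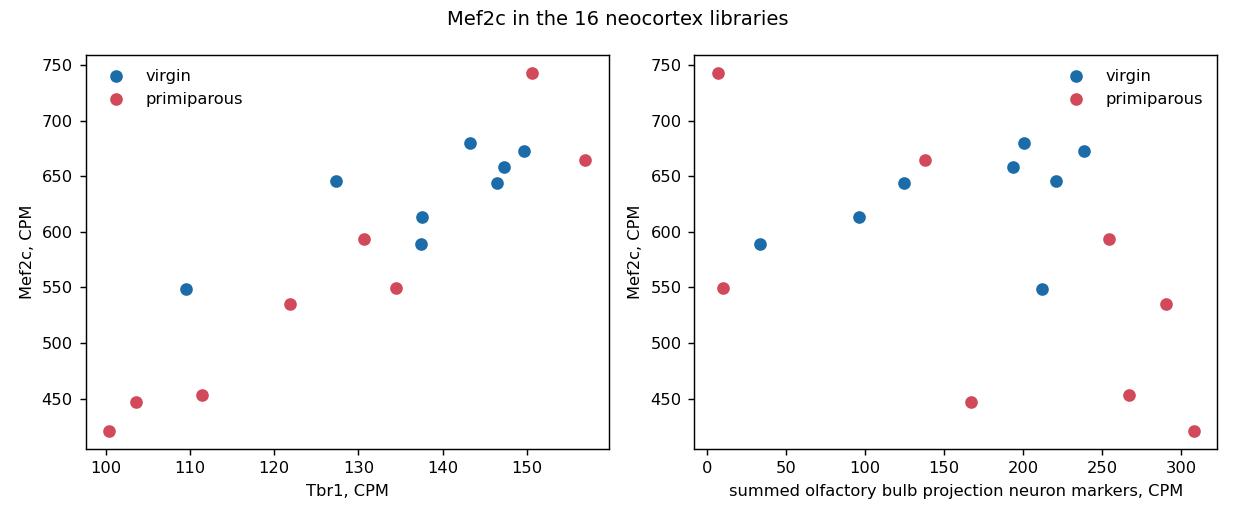
Mef2c in CPM (vertical axes) in the 16 neocortex libraries, virgin in blue and primiparous in red, against Tbr1 in CPM (left) and against the summed CPM of 4 olfactory bulb projection neuron markers (right). Mef2c rises with Tbr1, and the library with the most olfactory bulb marker RNA, at 307.7 CPM, has the least Mef2c, at 420.9 CPM.

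The dissections of the neocortex differed in markers of neighbouring tissue. The 4 markers of olfactory bulb projection neurons summed to 7.0 to 307.7 CPM over the 16 libraries. Primiparous 413, with the most Mef2c and Neurod6, had the lowest sum, and primiparous 418, with the least Mef2c and Tbr1, had the highest. The order did not hold throughout, since primiparous 425 had a sum of 10.1 CPM and 549.2 CPM of Mef2c, and virgin 4488 had 238.5 and 672.5 CPM. The 4 excitatory neuron markers summed to 5423 to 7078 CPM. Their sum was 6166 CPM in primiparous 413, against 6156 in 418, 6101 in 4493 and 5423 in 421, which had little Mef2c. The 7 striatal projection neuron markers summed to 155.7 CPM in primiparous 413, the lowest, and to 253.2 CPM in virgin 405, the highest. Of the libraries with little Mef2c, primiparous 418 had 177.7 CPM, 421 had 212.8 CPM and 4493 had 213.0 CPM. The part of the dissection in these correlations was not tested. In the other regions 0 of 28 pairs passed in each. In the amygdala the highest was Neurod2 with Fezf2 (r = 0.733, rho 0.757, adjusted permutation p = 0.052, n = 15), and the highest r was 0.608 in the cerebellum, 0.596 in the hippocampus and 0.538 in the hypothalamus.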

How the data were processed

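Polyadenylated RNA was made into libraries and sequenced as single reads of 100 bases. Per the labels, the authors used CASAVA, HISAT2, mm10 and featureCounts, with edgeR and limma afterwards, while how strand was set in counting is not given in the sources used here. The counts, deposited without normalization as whole numbers, covered 77 libraries. The deposited log2 values, named log2(CPM + 4) by the authors, lay a median of 3.94 from that quantity, and equalled log2 of the count over a size factor plus 4 within 5e-05. They served only as an alternative. Positions and lengths came from GENCODE M21 (GRCm38), and promoters from RefSeq GRCm38.p6. Length and GC content were available for 97.05% of genes tested.

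Genes with 5 CPM or more in 8 or more libraries were fitted per region with edgeR 4.0.16 (TMM, robust quasi-likelihood F-test) in R 4.3.3, and p-values were adjusted by Benjamini-Hochberg over 13016 genes. Region contrasts and interactions used 1 fit of 10 groups. Alternatives were limma 3.58.1 (voom and trend), DESeq2 1.42.0, RLE normalization, no filter, filterByExpr, the animal number series as a covariate, an offset for gene length and GC content, and leaving out each library or animal. Correlations used 100000 permutations, two-sided. The fits were tested on simulated data.

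Animal numbers in the labels and the study's methods pair the regions of an animal. Deviations from group means of same-numbered libraries had a median correlation of -0.013 to 0.104 over 10 pairs of regions, and those of different animals -0.011 to 0.0067. Members and lists were chosen with earlier results of these data known. All 8 members are described in each region and between the states of each region, and in the interaction those that passed in any setting. Of the lists, up to 3 genes at each end of the fold changes that passed are named, with a few other genes chosen after their values were seen. For likeness the 2 genes with the highest r are named, except that 1 gene the rule takes is not reported here. Within a region each library came from a separate animal, and the same animals recur across regions. Counting error and the number of animals limit the precision. ERCC spike-ins were not analysed here.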

Additional observations from a re-analysis of the deposited data

Results flagged for a closer look

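In groups of 7 or 8 libraries, 1 library stood far from the rest of its group in 7 of 80 combinations of member, region and state, by the gap to the nearest library over the range of the group. Chance is taken to flag about 1 in 20 groups, a rate that was not measured here. Neurod1 was 48.7 CPM in hippocampus of primiparous 413, the library with the most cerebellar granule cell markers, as described above. Neurod2 was 165.6 CPM in hippocampus of primiparous 427, the lowest of its group, and 105.1 CPM in neocortex of virgin 405, the highest. Tbr1 was 65.2 CPM in hippocampus of virgin 409 and 6.53 CPM in hypothalamus of virgin 4487, both the highest of their groups. In the hypothalamus of primiparous 418, Neurod6 was 4.44 CPM and Mef2c 35.4 CPM, both the highest of their group. Without that library the hypothalamic fold change of Neurod6 turned from 0.20 to -0.05 on the log2 scale.

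The fold changes of Bhlhe22 between states differed in 1 of the 4 contrasts of hypothalamus with another region, hypothalamus minus cerebellum, with a log2 difference of -0.47 (edgeR adjusted p = 0.031). The test over all regions did not pass (adjusted p = 0.066). The contrast also missed the threshold with the replicate block and the length and GC correction (adjusted p = 0.068) and without any 1 of 6 animals (0.057 to 0.075).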

How the results depend on the processing

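Region differences held in all alternatives, other than the steps named above: 1837 of 1840 values kept their direction and side of the threshold. For parity 1007 of 1055 did, 44 changed sign, all of them values that had not passed, and 4 crossed the threshold. The count of members called in the cerebellum went from 1 to 0 with the animal number series and in 1 fit of all 10 groups, and stayed at 1 without any single library. In the hypothalamus it was 0, and 0 to 1 when single libraries were left out. The interaction over all regions had 0 members, 1 in DESeq2, and 0 to 1 without single animals. Hypothalamus minus cerebellum had 1 member, 0 with the replicate block and the length and GC correction together, and 0 to 1 without single animals, and hypothalamus minus hippocampus 0 to 1. The replicate block alone changed no call of a member. Co-varying pairs in the amygdala went from 0 to 1 with TMM normalization and log2(CPM + 1), which changed the scaling and the added constant together. The animal number series was not fitted as a covariate in the interaction. The causes were not tested.

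Fold changes (log2) that changed sign under the length and GC correction were Neurod1 in the hypothalamus (0.015), Neurod6 in the cerebellum (-0.027), Bhlhe22 in the hippocampus (0.0054), in the neocortex Neurod1 (0.019), Neurod2 (-0.047), Neurod6 (0.077), Fezf2 (-0.051) and Mef2c (0.0065), and in the amygdala Neurod2 (0.047) and Mef2c (-0.090). With the animal number series they were Fezf2 in the hippocampus (-0.11) and neocortex (-0.012) and Neurod6 in the amygdala (0.036), and in limma-voom Fezf2 in the cerebellum (-0.062). Leaving out single libraries gave ranges across 0 for Neurod6 in the hypothalamus (-0.053 to 0.29) and neocortex (-0.078 to 0.027), Fezf2 in the cerebellum (-0.26 to 0.57) and hippocampus (-0.029 to 0.086), Neurod2 in the cerebellum (-0.028 to 0.055) and amygdala (-0.12 to 4.9e-06), Bhlhe22 in the hippocampus (-0.056 to 0.019), Bcl11b in the hippocampus (-0.055 to 0.0035) and amygdala (-0.052 to 0.0099) and Mef2c in the amygdala (-0.048 to 0.080).

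With all libraries in the fit, the counts of all genes called in the hypothalamus ran from 3 with the animal number series to 3327 in DESeq2, and in the cerebellum from 0 to 505. Depth is among the limits for Fezf2 and Tbr1 in the cerebellum and, in the hypothalamus, for the 3 NeuroD genes (as few as 12 counts of Neurod6 in 1 library), Tbr1 (22 to 98 counts) and Fezf2 (24 to 82).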
